A study of Homo sapiens with 6 samples.

Results

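Chromatin accessibility was examined at the collagen, laminin and integrin genes of EndoC-βH3 cells. The set held 79 of 19103 autosomal protein-coding genes, of which 42 encode collagen chains, 12 laminin chains and 25 integrin chains. Members were chosen by symbol alone: COL, a number, A and a number for collagens, LAMA, LAMB or LAMC and a number for laminins, and ITGA or ITGB with a number or a single letter for integrins. A promoter region was an accessible region that overlapped 2 kb on either side of a transcription start site of such a gene, and a distal region was any other region whose nearest protein-coding start site, within 100 kb, belonged to one. Together the members had 95 promoter regions and 336 distal regions, or 431 of the 108542 regions in the deposited table.

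EndoC-βH3 is a line of human fetal beta cells kept dividing by transgenes for telomerase (hTERT) and a viral oncoprotein (SV40 large T), both of which its CreER recombinase can cut out. The senescent group, labelled as senescence induction, had been given 4-hydroxytamoxifen for 3 weeks, which activates the recombinase, and the non-senescent group was an untreated control. Each group had 3 ATAC-seq libraries of 100000 cells, all labelled WT for genotype, and ATAC-seq reads collect where a transposase can reach the DNA. Nothing in the labels shows that the 3 libraries of a group came from separate cultures. All 6 libraries came from the same line, grown on plates that had been coated with fibronectin and matrix. The deposited table gives each region 1 mean over all 6 libraries. It therefore has no SD, no value for either group and no depth for a library, and the senescent and non-senescent cells are not compared here. Every level below is the authors' mean signal, divided by the width of the region in kb so that regions of different width can be set side by side. In a bulk library, a region open in few cells and a region weakly open in many cannot be told apart.

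Collagens are triple helices of alpha chains that form fibrils, networks or filaments of the extracellular matrix. Laminins are trimers of an alpha, a beta and a gamma chain that, together with the collagen IV network, build basement membranes. Integrins are receptors of an alpha and a beta chain that bind these proteins at the cell surface. In the islet, the basement membrane is made largely by endothelial cells, and beta cells meet it through integrins that contain the beta1 chain.

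Most beta cell markers had strong promoter signal in these libraries, and most markers of other cell types had little or none. All 16 beta cell markers had a promoter region, against 78.4% of all autosomal protein-coding genes. Their median was 1455 per kb, against 696 over the 14968 genes with such a region. Of the 16, 11 lay above that median, while ABCC8, SLC30A8, KCNJ11, IAPP and G6PC2 lay below it, at 286 to 589 per kb. Insulin (INS) reached 1427 and PDX1 reached 2057 per kb. Of the 10 fibroblast or stellate markers, 6 had a region, with a highest value of 188 per kb at ACTA2, and COL3A1, DCN, FAP and PDGFRB had none. Of the 8 endothelial markers, 3 had a region, with a highest value of 144 per kb at PECAM1. Of the 8 immune markers, 3 had a region, with a highest value of 921 per kb at CD68. Of the 8 duct or acinar markers, 6 had a region, with 1298 per kb at CPA1 and 737 at KRT19 above the all-gene median. The part of other cell types in the values below was not tested.

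A promoter region was about as common among the members as among all genes, but its signal was lower. Of the 79 members, 64 had a promoter region (81.0%), against 78.4% of all autosomal protein-coding genes. By family, 36 of 42 collagen, 11 of 12 laminin and 17 of 25 integrin genes had one. The promoter signal of a gene was taken from its promoter region of highest mean signal. Its median was 182 per kb over the 64 members and 696 per kb over all genes with a region. Only 8 of the 64 members lay above that all-gene median, 5 of them integrins, 3 laminins and none a collagen. The family medians were 417 per kb for laminins, 304 for integrins and 161 for collagens. With windows of 1 kb around start sites they were 302, 336 and 159, so the order of laminins and integrins depends on the window, while the collagens stayed lowest.

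**Figure D1:**
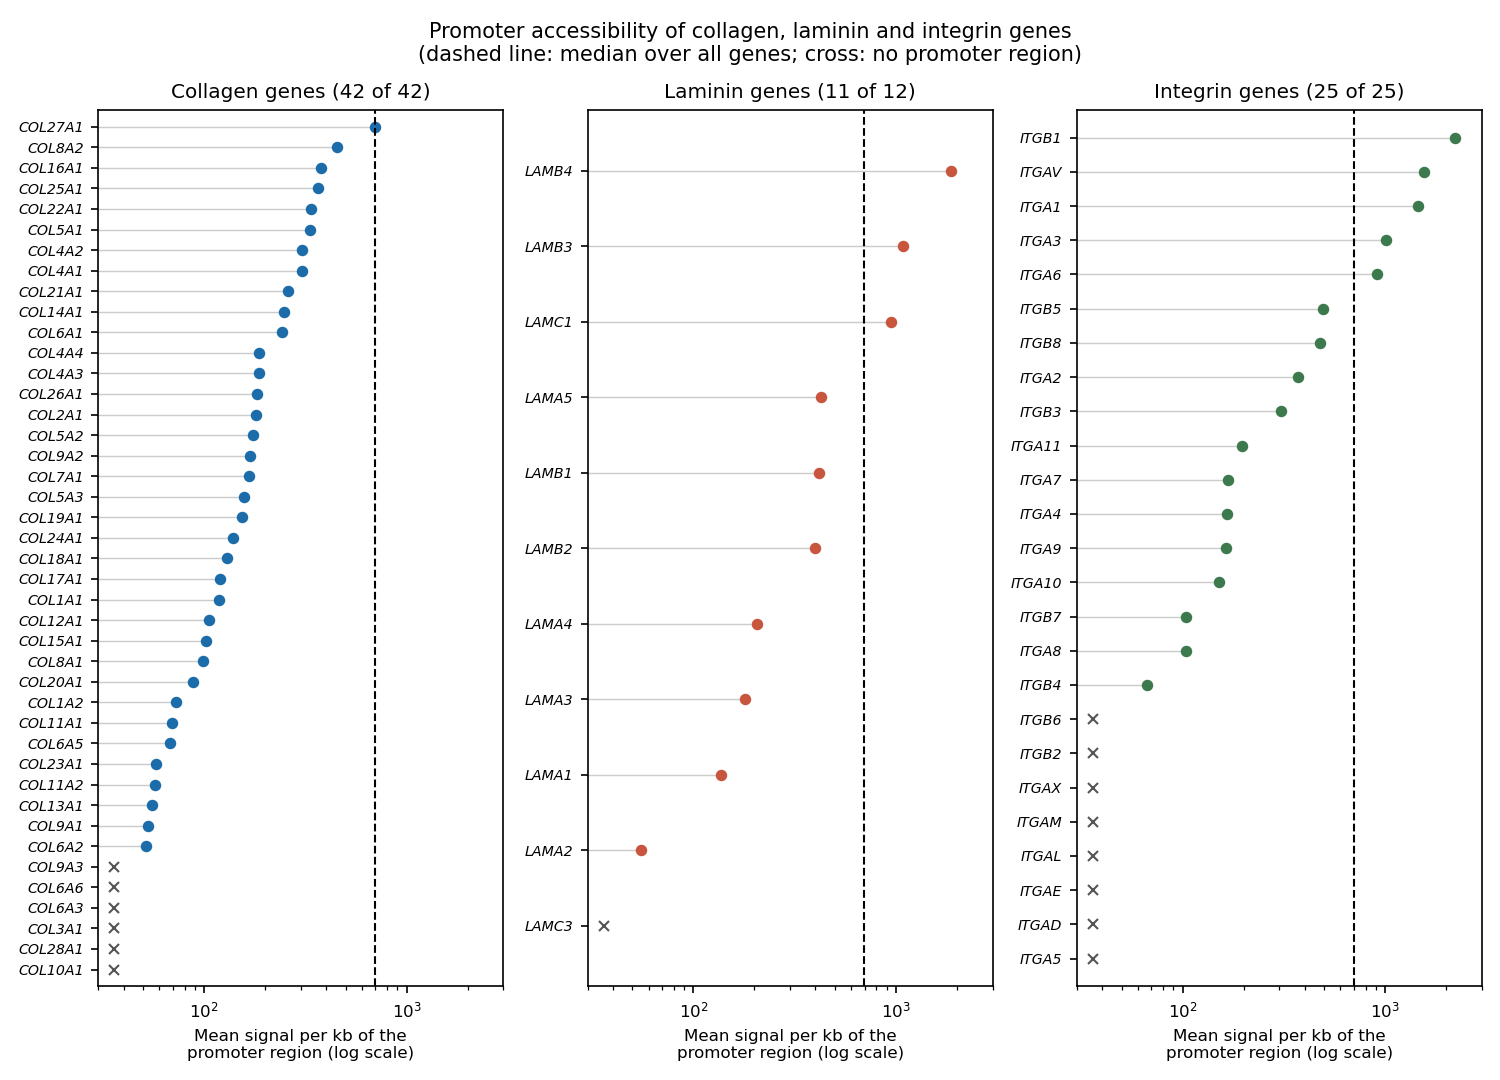
Mean signal per kb (log scale, over all 6 libraries) of the promoter region of 78 of the 79 genes, by family. Points are single genes, crosses are the 15 genes with no promoter region, and the dashed line is the median of 696 per kb over all genes. No collagen gene lies beyond the line, while 3 laminin and 5 integrin genes do.

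The same held over single regions at promoters, but not at distal regions. The 95 promoter regions of the members had a median of 166 per kb, with quartiles of 105 and 374, while the 19445 autosomal promoter regions had a median of 513 with quartiles of 234 and 927. They were also narrower, with a median width of 643 bp against 974 bp. Their median GC content was 63.5%, close to the 62.2% of all promoter regions. The 336 distal regions had a median of 183 per kb, and the 53887 distal regions of all genes had a median of 187 per kb. Their widths, at medians of 484 and 488 bp, and their GC content, at 47.6% and 47.1%, were likewise close.

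**Figure D2:**
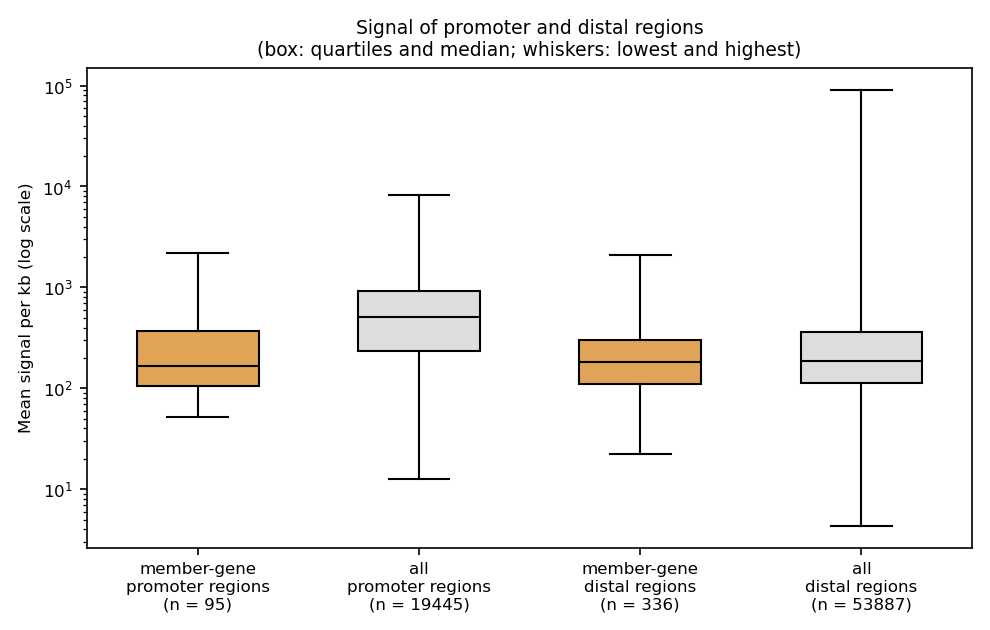
Mean signal per kb (log scale, over all 6 libraries) of promoter and distal regions, for the members (orange) and for all autosomal genes (grey). Boxes are quartiles with the median and whiskers run from the lowest to the highest region. The member promoter regions sit lower than all promoter regions, at medians of 166 and 513, and the distal regions overlap, at 183 and 187.

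Promoter sequences of members from RefSeq (build GRCh38.p14, 250 bases before to 50 after the start) were matched for 55 of the 79 genes. The following are examples from the 3 families, each overlapping an accessible region, and do not span the range of promoter signal within each family. Capitals mark, on either strand, the GC box GGGCGG, bound by SP factors, and the CCAAT box, bound by NF-Y. LAMC1 is at chr1:183023170-183023469 on the plus strand, COL4A1 at chr13:110307108-110307407 on the minus strand, ITGB1 at chr10:32958181-32958480 on the minus strand, ITGAV at chr2:186589806-186590105 on the plus strand and LAMA2 at chr6:128882888-128883187 on the plus strand.
LAMC1: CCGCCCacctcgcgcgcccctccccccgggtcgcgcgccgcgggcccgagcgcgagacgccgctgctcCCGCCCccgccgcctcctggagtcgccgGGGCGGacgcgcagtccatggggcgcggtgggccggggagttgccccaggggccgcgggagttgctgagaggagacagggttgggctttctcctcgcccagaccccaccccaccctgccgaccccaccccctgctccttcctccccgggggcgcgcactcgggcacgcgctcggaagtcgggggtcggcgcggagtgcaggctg
COL4A1: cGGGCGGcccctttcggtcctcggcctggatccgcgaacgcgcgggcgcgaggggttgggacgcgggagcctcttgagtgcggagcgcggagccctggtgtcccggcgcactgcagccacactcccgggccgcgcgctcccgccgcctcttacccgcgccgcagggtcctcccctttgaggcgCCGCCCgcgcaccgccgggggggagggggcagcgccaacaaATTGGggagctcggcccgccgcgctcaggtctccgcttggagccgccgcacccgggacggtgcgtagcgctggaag
ITGB1: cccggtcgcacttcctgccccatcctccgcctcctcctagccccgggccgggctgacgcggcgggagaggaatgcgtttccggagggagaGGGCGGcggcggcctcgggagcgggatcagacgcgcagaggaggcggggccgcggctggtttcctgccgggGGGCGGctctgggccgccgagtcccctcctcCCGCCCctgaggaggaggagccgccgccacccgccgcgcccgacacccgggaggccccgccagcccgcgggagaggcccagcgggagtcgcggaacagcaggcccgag
ITGAV: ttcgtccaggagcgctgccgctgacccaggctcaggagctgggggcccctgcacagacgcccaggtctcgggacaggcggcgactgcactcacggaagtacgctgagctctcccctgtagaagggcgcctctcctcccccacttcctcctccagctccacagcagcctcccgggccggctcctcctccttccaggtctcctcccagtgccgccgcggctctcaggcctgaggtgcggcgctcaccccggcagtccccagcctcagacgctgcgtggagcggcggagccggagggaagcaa
LAMA2: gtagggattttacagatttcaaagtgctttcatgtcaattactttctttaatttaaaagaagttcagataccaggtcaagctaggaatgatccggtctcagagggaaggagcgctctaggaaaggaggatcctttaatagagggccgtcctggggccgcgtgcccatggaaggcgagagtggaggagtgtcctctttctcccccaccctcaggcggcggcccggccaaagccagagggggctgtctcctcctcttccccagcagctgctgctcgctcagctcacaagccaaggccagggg
The first 3 hold the GC box, at 3 places in LAMC1, 2 in COL4A1 and 3 in ITGB1, and COL4A1 also holds 1 CCAAT box. ITGAV, at 1551 per kb, and LAMA2, at 55.1 per kb, hold neither in these windows, although their signals are far apart. Over the 55 matched members, 58.2% held the GC box, against 59.6% of 14616 RefSeq promoters. The CCAAT box was present in 20.0% of the members and 36.3% of all, and the TATA box (TATAAA) in 10.9% and 9.72%. With 69.6% of the members matched, these shares cannot stand for the whole set.

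Within the laminins, promoter signal was higher at the beta than at most alpha chains. All 4 beta chains had at least 399 per kb, while 4 of the 5 alpha chains had at most 205. The alpha chains, which carry the globular domains that bind receptors, ran from 55.1 per kb at LAMA2 to 427 at LAMA5. LAMA1 had 136, LAMA3 had 180 and LAMA4, a chain of the vascular basement membrane, had 205 per kb. The LAMA5 value came from a start inside the gene, 13366 bp from its canonical start, and the 3 other LAMA5 promoter regions had 150 to 285 per kb. The beta chains ran from 399 per kb at LAMB2 and 417 at LAMB1 to 1080 at LAMB3 and 1871 at LAMB4. The LAMB3 and LAMB4 regions lay 1406 and 66051 bp from the canonical starts, while those of LAMB1 and LAMB2 covered theirs. LAMB2 and LAMB1 are the alternative beta chains of the main basement membrane laminins, and LAMB3 is the beta chain of laminin-332 in epithelia.

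The highest laminin values did not all mark the usual start of the gene. The LAMB4 region, at chr7:108063437-108064310, lay in coding sequence 66051 bp from the canonical start, at the start of a shorter annotated transcript, and LAMB4 had no promoter region when only canonical starts were used. The LAMB3 region, at chr1:209653830-209654723, lay 1406 bp from the canonical start and was lost with windows of 1 kb. The gamma chain LAMC1, present in most laminin trimers, had 943 per kb in a region of 2090 bp at chr1:183022385-183024475 that covers its canonical start. Its 2 other promoter regions, at internal starts, had 131 and 167 per kb. LAMC3 had no promoter region and 4 distal regions of at most 179 per kb.

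Among the integrins, promoter signal lay above the all-gene median at the beta1 chain and at 4 of the 17 alpha chains. These 4, ITGA1, ITGA3, ITGA6 and ITGAV, can pair with beta1, and ITGA1 shared its promoter region with another gene. The other alpha chains with a promoter region ran from 104 per kb at ITGA8 to 369 at ITGA2, and 6 alpha chains had none. Most leukocyte integrins had no promoter region. ITGB1, the beta chain of the collagen, laminin and many fibronectin receptors, had 3 promoter regions. The strongest, with 2211 per kb, lay in an intron at chr10:32937915-32939111, 19119 bp from the canonical start, near the start of a shorter transcript. This value stood at the 95.7th percentile of genes with a promoter region. The region at the canonical start, which holds the ITGB1 sequence above, had 1433 per kb, still more than the all-gene median, and the third had 380 per kb.

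Promoter signal varied widely among the laminin receptors and among the receptors for RGD motifs and fibronectin. Among the collagen receptors, the wide range rests on ITGA1, whose start is shared with another gene. Among the collagen receptors, ITGA1 had 1456 per kb, ITGA2 369, ITGA11 196 and ITGA10 151. The ITGA1 start is also the start of PELO, a ribosome rescue factor whose gene lies in an intron of ITGA1, and all 3 ITGA1 promoter regions were shared with it, so the signal cannot be ascribed to either gene. Among the laminin receptors, ITGA3 had 1013 and ITGA6 had 908 per kb, both in regions at the canonical start, while ITGA7 had 166 and ITGB4, the partner of ITGA6 in hemidesmosomes, had 66.5. Of the receptors for RGD motifs and fibronectin, ITGAV had 1551 per kb, ITGB5 494, ITGB8 478, ITGB3 304 and ITGA8 104. ITGA5, the alpha chain of the classical fibronectin receptor, and ITGB6 had no promoter region, and ITGA5 had no distal region either. ITGB6 had 10 distal regions, of up to 787 per kb.

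The 9 integrins of leukocytes and of VCAM binding had few promoter regions. ITGAD, ITGAE, ITGAL, ITGAM, ITGAX and ITGB2 had none. ITGA4 had 165, ITGA9 had 164 and ITGB7 had 104 per kb. The ITGB7 value came from an intergenic region past the far end of the gene, 16749 bp from its canonical start. With windows of 1 kb, ITGB7 had no promoter region. ITGAE, which pairs with ITGB7 on lymphocytes of epithelia, had 4 distal regions, 1 of which was among the strongest of the whole set.

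Among the collagens, no promoter exceeded the all-gene median, and weak promoters were found in several classes. Of the 11 fibrillar chains, 10 had a promoter region with a median of 148 per kb. COL27A1, a short fibrillar collagen of cartilage, was the highest of all collagens with 696.1 per kb, just below the all-gene median of 696.4, and had 2 further promoter regions of 197 and 535 per kb. COL5A1, which helps to start fibrils, had 331 per kb. The chains of the main fibrils of connective tissue were low: COL1A1 had 119 per kb in a region of 1193 bp, COL1A2 had 72.9 per kb in a region of 242 bp over its start, and COL3A1 had no promoter region unless starts of transcripts of every type were used. COL11A1 had 69.2 and COL11A2 had 57.3 per kb. COL2A1, COL5A2, COL5A3 and COL24A1 lay between these groups, with 139 to 181 per kb.

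The network-forming chains had a median of 246 per kb over 6 of 7 genes. COL4A1 and COL4A2, the chains of the ubiquitous collagen IV network, lie head to head, with canonical starts at positions 110307157 and 110307284 of chromosome 13. They shared a single region of 2457 bp, at chr13:110306939-110309396, with 305 per kb. COL4A3 and COL4A4, chains of the kidney and lung network, also lie head to head and shared a region of 1699 bp with 187 per kb. COL8A2 had 451 per kb in a coding exon 25113 bp from its canonical start. Its region next to that start had 76.9 per kb, and COL8A1 had 98.7. COL10A1, a collagen of hypertrophic cartilage, had no promoter region and no distal region.

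Of the beaded filament chains of collagen VI, COL6A1 had 242 per kb over its canonical start. COL6A2, next to it on chromosome 21, had 51.6 per kb, the lowest of all members, in a region 12507 bp from its canonical start. COL6A5 had 67.6 per kb, and COL6A3 and COL6A6 had no promoter region. The fibril-associated chains had a median of 169 per kb over 9 of 10 genes, from 52.6 at COL9A1 to 379 at COL16A1, with 339 at COL22A1 and 259 at COL21A1. The COL9A1 value came from a region 19963 bp from the canonical start, and COL9A1 had no promoter region with canonical starts alone. The COL16A1 value came from an internal start 37081 bp from the canonical one. Its 2 regions next to the canonical start had 100.3 and 127 per kb. COL19A1 had 153 per kb in a region shared with LMBRD1, and COL9A3 had no promoter region. COL9A2, COL12A1, COL14A1 and COL20A1 had 88.2 to 248 per kb. The transmembrane chains ran from 55.4 per kb at COL13A1 and 57.6 at COL23A1 through 120 at COL17A1 to 364 at COL25A1, a collagen found in neurons. COL15A1 and COL18A1, whose ends are cut to endostatin-like fragments, had 102 and 129 per kb. COL7A1 and COL26A1 had 166 and 183 per kb, and COL28A1 had no promoter region.

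For some members the strongest promoter region lay away from the canonical start. In 41 of the 64 members, and in 11654 of the 14968 genes with a promoter region, the region of highest mean signal covered the canonical start. When each gene was given the region nearest to its canonical start instead, the medians were 124 per kb for collagens, 399 for laminins and 304 for integrins. No all-gene median by this choice is given here, so these values cannot be set against the all-gene median above.

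Distal regions were spread over most of the set. The members had a median of 3 distal regions, and 16 of 79 had none, against a median of 1 over all genes, of which 6368 of 19103 had none. The members also had more DNA assigned to them, with a median of 148 kb for which one of their starts was the nearest, against 56.5 kb over all genes. Per 100 kb of such DNA, the members had 2.87 distal regions and all genes had 3.24. By family, the density was 2.64 for collagens, 3.50 for laminins and 3.07 for integrins. Of the 336 distal regions, 236 lay in introns (70.2%), 84 were intergenic (25%) and 16 lay in exons (4.76%), while introns held 56.2% of the distal regions of all genes. An intron of the member gene itself held 221 of them.

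**Figure D3:**
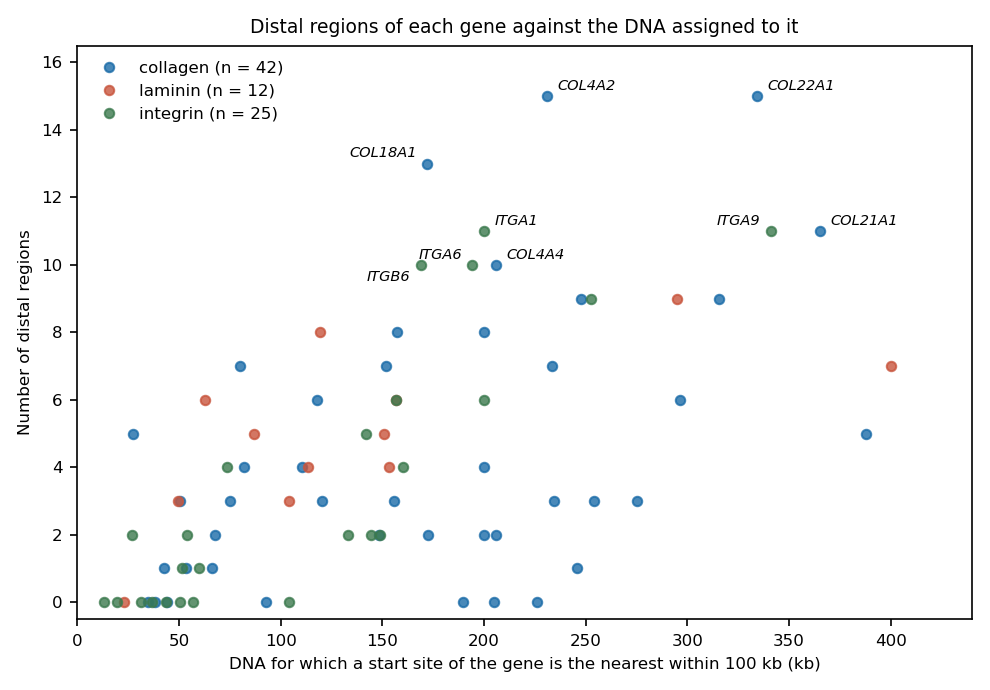
Number of distal regions of each gene against the DNA, in kb, for which one of its start sites was the nearest within 100 kb. Each point is 1 of the 79 genes, coloured by family, and genes with 10 or more distal regions are named. COL22A1 and COL4A2 have the most with 15 each, and 16 genes have none.

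COL22A1, a collagen of tissue junctions, and COL4A2 had the most distal regions, with 15 each, followed by COL18A1 with 13 and by ITGA1, ITGA9 and COL21A1 with 11 each. The regions of COL22A1 had a median of 128 per kb, against 187 over the distal regions of all genes. They had at most 284 per kb, and 12 of them lay in its introns. Those of ITGA9 were similar, with a median of 126 and at most 243 per kb. Those of COL4A2 lay all in introns and ran from 61.9 to 1242 per kb, and the strongest, centred 134963 bp into the gene, exceeded the 305 per kb of the shared promoter. COL18A1 showed the widest range, from 36.1 to 2087 per kb, against 129 per kb at its promoter. The distal regions counted for ITGA1 reached 733 per kb, less than its strongest promoter region. Both could equally be assigned to PELO, which shares its start.

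**Figure D4:**
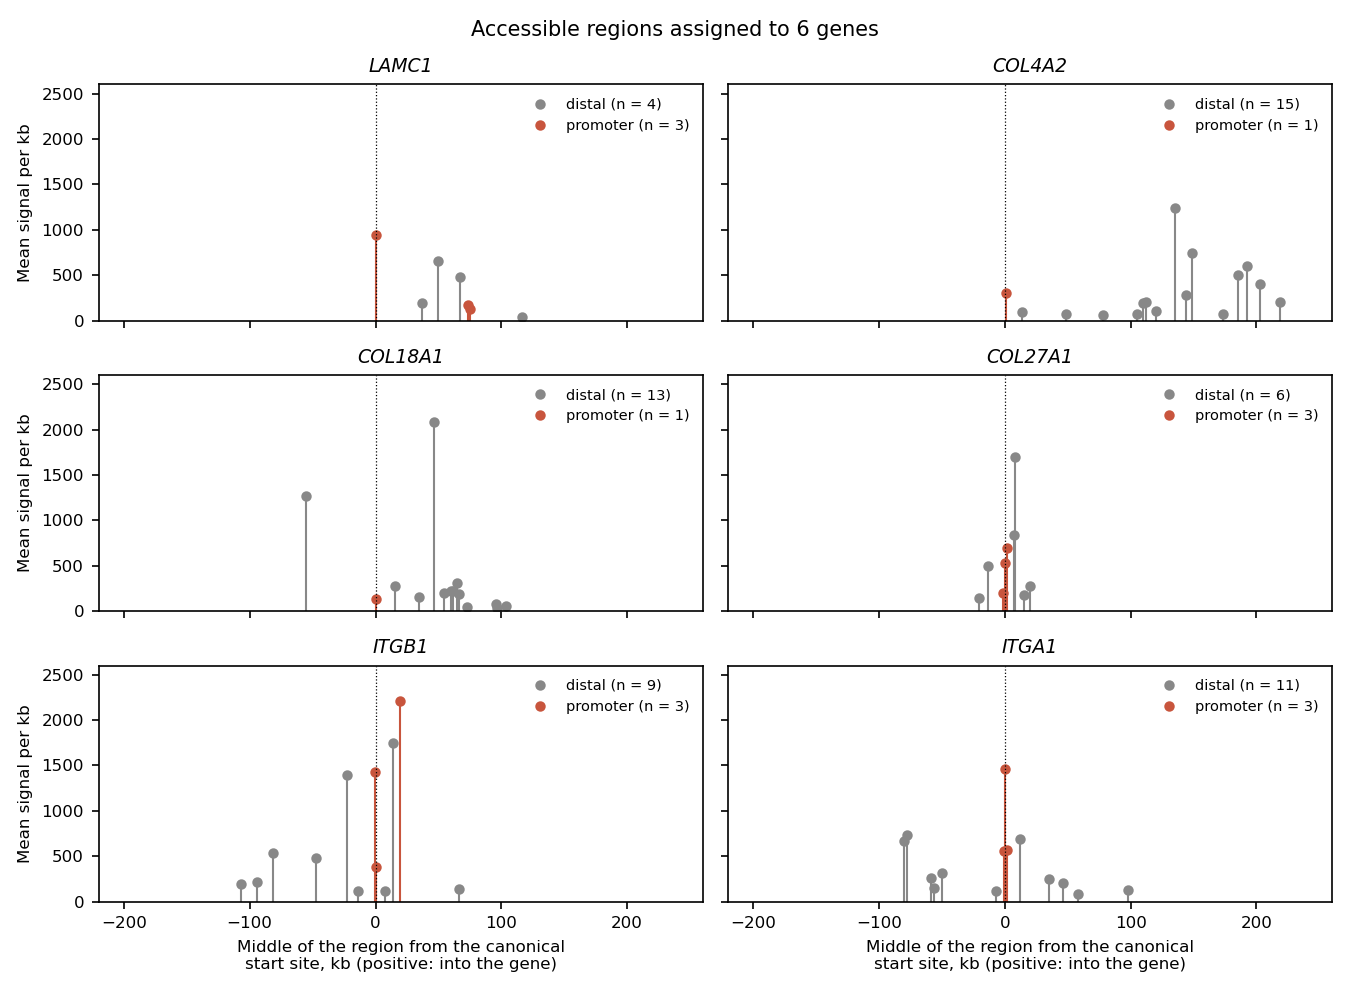
Mean signal per kb (over all 6 libraries) of every region assigned to 6 genes, by the distance in kb of its middle from the canonical start, with positive values into the gene. Red marks promoter regions, including those at internal starts, and grey marks distal regions. In COL4A2, COL18A1 and COL27A1 the highest region is distal, and in LAMC1, ITGB1 and ITGA1 it is a promoter region.

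The 5 distal regions of highest signal per kb belonged to COL18A1, ITGAE, ITGB1, COL27A1 and COL21A1. They had 2087, 1934, 1747, 1701 and 1439 per kb and stood between the 98.2nd and 99.4th percentile of all distal autosomal regions. The first 4 lay in introns of the genes and the region of COL21A1 was intergenic. The COL18A1 region was 3788 bp and that of COL27A1 was 3049 bp from the nearest annotated start of the gene. Their central 300 bases, read from hg38 on the plus strand, are given for 3 of them, since their letters can be set beside the shares of motifs that follow. They are at chr21:45451119-45451418 for COL18A1, chr9:114163792-114164091 for COL27A1 and chr6:56399735-56400034 for COL21A1. Capitals mark the AP-1 motif TGANTCA, the E-box CANNTG and the forkhead motif TGTTTAC on either strand.
COL18A1: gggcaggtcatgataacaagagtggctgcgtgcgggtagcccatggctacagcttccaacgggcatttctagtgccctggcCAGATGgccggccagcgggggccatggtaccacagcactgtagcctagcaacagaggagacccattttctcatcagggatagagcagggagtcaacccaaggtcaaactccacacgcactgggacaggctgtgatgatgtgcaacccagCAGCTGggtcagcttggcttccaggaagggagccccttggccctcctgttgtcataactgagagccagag
COL27A1: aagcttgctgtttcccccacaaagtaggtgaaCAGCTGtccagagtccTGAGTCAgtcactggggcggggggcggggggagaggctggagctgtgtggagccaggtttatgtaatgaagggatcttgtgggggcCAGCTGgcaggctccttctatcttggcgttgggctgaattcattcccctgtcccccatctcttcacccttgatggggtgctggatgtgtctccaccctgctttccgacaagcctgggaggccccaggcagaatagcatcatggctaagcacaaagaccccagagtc
COL21A1: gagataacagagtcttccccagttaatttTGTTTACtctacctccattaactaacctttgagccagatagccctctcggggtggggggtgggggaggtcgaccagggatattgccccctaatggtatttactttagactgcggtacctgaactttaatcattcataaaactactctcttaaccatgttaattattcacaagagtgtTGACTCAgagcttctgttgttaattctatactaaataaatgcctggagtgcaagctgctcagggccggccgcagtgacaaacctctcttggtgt
The AP-1 motif, bound by FOS and JUN proteins, is present in the printed bases of COL27A1 and COL21A1, but not in those of COL18A1. The E-box, bound among others by NEUROD1 with its partners, is present in those of COL18A1 and COL27A1, and the forkhead motif in that of COL21A1.

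Over all 336 distal regions, most motifs were about as frequent as in the distal regions of all genes. The AP-1 motif was present in 49 of the 336 (14.6%) and in 11.3% of the 53887. The E-box was present in 87.8% and 87.0%, the forkhead motif in 8.63% and 9.22%, and the MAF motif TGCTGAC, bound by MAF factors, in 8.33% and 7.68%. In the central 200 bases the order turned for both of the last, with 7.14% and 6.71% for the forkhead motif and 3.57% and 5.44% for the MAF motif. The GC box was present in 12.5% and 11.1%, the CCAAT box in 27.4% and 29.4%, the TATA box in 12.2% and 14.6% and the X-box motif GTTGCCA, bound by RFX factors, in 3.57% and 5.50%. At promoter regions, the GC box was present in 47.4% of the 95 and 55.4% of all, and the CCAAT box in 18.9% and 24.1%. These are counts of letters, without a test, and regions of 1 gene are not independent of each other.

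**Figure D5:**
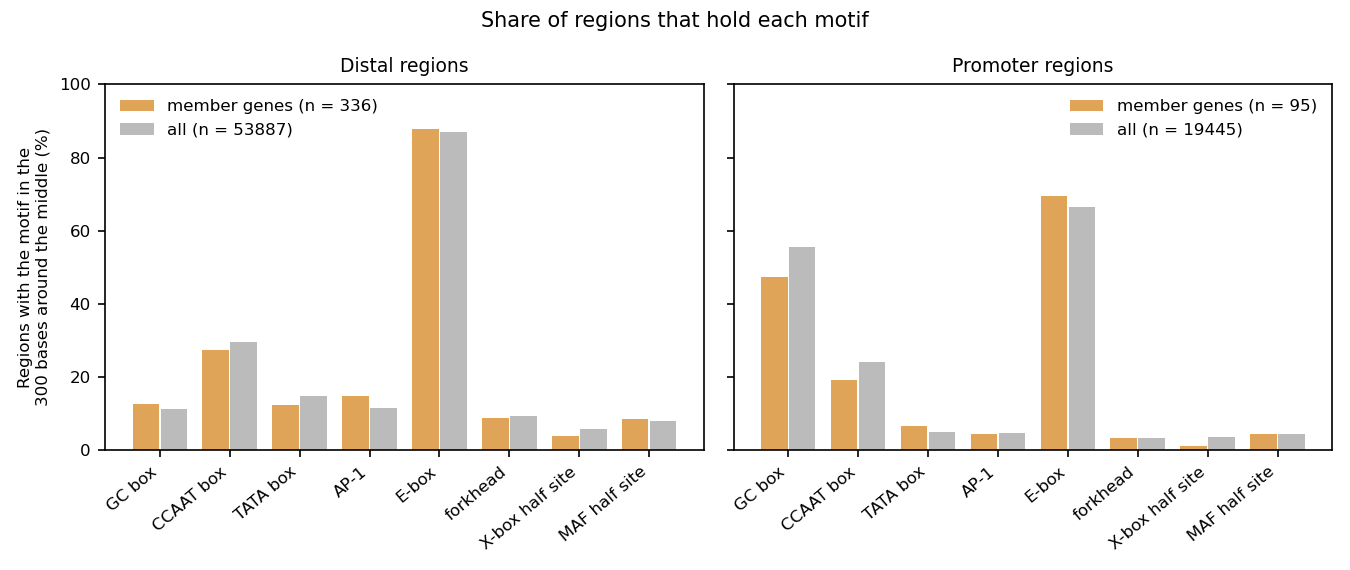
Percentage of regions that hold each motif on either strand in the 300 bases around their middle, for distal regions (left) and promoter regions (right) of the members (orange) and of all autosomal genes (grey). The bars lie within a few percentage points of each other in most motifs, and the AP-1 motif is present in 14.6% of member distal regions and 11.3% of all.

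The lists of genes that work with collagens, laminins and integrins had higher median promoter signal than the 182 per kb of the members. Against the all-gene median of 696 per kb, only the adhesion complex was higher, and by little. Over all autosomal protein-coding genes, 78.4% had a promoter region. All 17 genes of collagen processing had one, with a median of 515 per kb, and 5 lay above the all-gene median. P4HB, the protein disulfide isomerase that is also a subunit of prolyl 4-hydroxylase, had 2892 per kb, P4HA1, its catalytic partner, had 1576, and SERPINH1, the collagen chaperone, had 660. Of the cross-linking enzymes, LOXL1 had 824, LOXL3 673, LOXL4 515, LOX 303 and LOXL2 53.4 per kb. Of the 17 genes of the adhesion complex inside the cell, 16 had a promoter region with a median of 703 per kb, and FERMT3, the kindlin of blood cells, had none. TLN1 (talin), which activates integrins, had 2051 and VCL (vinculin) had 1446 per kb. Of the 10 other matrix receptors, 8 had a region with a median of 325 per kb, from 248 at SDC4 to 1470 at DAG1 (dystroglycan), and the blood cell receptors GP6 and LAIR1 had none.

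The list of basement membrane partners, which also holds fibronectin and vitronectin, had the lowest median of these lists. Of its 7 genes, 6 had a promoter region with a median of 250 per kb. AGRN (agrin) had 909 and VTN (vitronectin) 668 per kb, while NID1 (nidogen) had 254, HSPG2 (perlecan) 246, FN1 (fibronectin) 129 and NID2 127. SPARC, which binds collagen IV, had no promoter region.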

How the data were processed

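ATAC-seq was measured in 6 libraries of EndoC-βH3 cells, 3 senescent and 3 non-senescent, grouped by their labels. According to the methods and the submitters' processing notes, the authors trimmed reads with Trim Galore and cutadapt, aligned them to hg38 with Bowtie2, used SAMtools, removed mitochondrial reads and duplicates (Picard), shifted reads for the transposase (deepTools), called peaks with MACS2 at q under 0.01 and counted reads under the union of peaks. Versions are not given in the sources used here. These steps are usual for ATAC-seq. Whether the peaks were called per library or on pooled libraries before the union is not stated.

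The mean signal in the deposited table is the authors' mean over all 6 libraries of read counts normalised by DESeq2 size factors, for 108542 regions on 24 chromosomes. The table lists only regions of the union of peaks, so the absence of a region is not a measurement of 0. The table has 0 columns of single libraries, so depth per library, SD and intervals cannot be given. Its other 5 columns hold the authors' comparison of the groups (fold change, its standard error, test statistic, p-value and adjusted p-value) and were not used. The test planned for counts per library was therefore not run, and senescent and non-senescent cells were not compared.

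Genes and start sites of protein-coding transcripts were taken from GENCODE 44 on hg38, and 0 regions lay past a chromosome end. Signal was divided by region width, since counts grow with width. The canonical start is that of the Ensembl canonical transcript. Where 1 start belonged to 2 genes, distal regions went to the gene first in the alphabet (PELO and ITGA1). ITGA2B, whose symbol ends in a letter after its number, was not a member. Region limits are as in the deposited table, whose convention for starts is not stated, and were read as counted from 0. Motifs were searched on both strands in the 300 bases around the middle of a region. A percentile is the share of genes or regions of the same kind at or below it in signal per kb. The steps used Python 3.11.15, pandas 2.3.3, numpy 2.4.6 and matplotlib 3.10.9, and were tested on 400 simulated regions.

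Values are given for the 4 highest and 4 lowest promoters of each family, genes known from the islet matrix, the fibroblast collagens, the genes with most distal regions, the 5 strongest distal regions and shared promoters, and further members are named to place each in its class. Every member without a promoter region is named. A few items that these rules would name are not reported here, though they are included in the counts. The members, lists and rules were chosen with earlier results of these data known. No test was made, since genes and regions are not replicates.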

Additional observations from a re-analysis of the deposited data

How the results depend on the processing

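The counts and medians were recomputed with promoter windows of 1 and 0.5 kb, canonical starts or starts of all transcripts, distal limits of 50 and 200 kb, starts of genes of every biotype, distances from the middle of a region, a signal minimum of 50, other choices of the region that stands for a gene, and ITGA2B as a member. All 35 such values stayed within a ratio of 1.5 of those reported. The order of 2 families still turned: with windows of 1 kb the median promoter signal was 302 per kb for laminins and 336 for integrins, against 417 and 304. The number of members with a promoter region ran from 52, with a signal minimum of 50, to 68, with starts of all transcripts, which gave COL3A1, COL9A3, ITGAE and ITGB6 a region. Canonical starts alone took the region from COL6A2, COL9A1, ITGB7 and LAMB4. The median promoter signal ran from 167 to 245 per kb. Motif shares fell in the central 200 bases, as a shorter window holds fewer matches, to 8.93% for AP-1 against 7.88% of the distal regions of all genes. The forkhead motif, at 7.14% against 6.71%, and the MAF motif, at 3.57% against 5.44%, changed order between the members and all genes. No paired analysis was possible because the deposited table has no value for a single library, although the labels number the libraries of both groups alike. For the same reason, leaving out a library, other scalings and a filter on low counts were not run. Depth limits the weak regions most, and its size per library is unknown here.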
